A study of Mus musculus with 14 samples.

Results

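Afp, Alb, Ttr, Apoa1, Apoa2, Apoa4, Apob, Apoc2, Rbp4 and Trf encode plasma proteins that the visceral endoderm secretes, and these 10 genes, chosen by name, are described here out of 50686 genes counted. The symbols of 9 of the 10 stand among the 16181 protein-coding genes of the deposited CPM table (CPM: reads of a gene per 1000000 reads counted). Apoc2 does not, and its values come from the count table alone. RNA was sequenced from mouse embryonic stem cells (ESCs) that carry an Osr1-GFP reporter and a stable short hairpin. The study's methods name TC1 ESCs and do not state the parent of the reporter cells. The hairpin was either shLacZ, the control that targets a bacterial gene, or shDis3l2, against the exoribonuclease Dis3l2. The 7 libraries of each line were taken at d0 (undifferentiated cells in LIF and 2i) and every 2 days from d2 up to d12 of embryoid body (EB) formation, started in hanging drops with serum after LIF and 2i were withdrawn. Each line and day has 1 library, and each line is a single stable culture, so no value has a biological replicate.

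The visceral endoderm is the extraembryonic epithelium that surrounds the early embryo and that also forms on the surface of EBs. Before the liver exists it takes up maternal nutrients by endocytosis and secretes carriers: the albumin family proteins AFP and ALB, the lipoprotein proteins APOB, APOA1, APOA2, APOA4 and APOC2, the thyroxine and retinol carriers TTR and RBP4, and the iron carrier transferrin (Trf). All of these enter the secretory pathway at the ER. The fetal liver later makes the same proteins, and in both tissues the genes respond to endoderm transcription factors such as HNF4A, HNF1 and FOXA proteins.

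The sequences upstream of 4 of the genes are shown because Afp and Alb are neighbours whose levels parted at d12, Apob had the most reads, and Apoa1 rose with them. They are the 250 bases before the start site in RefSeq (GRCm38.p6), 5′ to 3′ on the gene's own strand, which is the plus strand for all 4. Gene positions given further below are from GENCODE, whose start sites can differ. The Apoa1 window runs past the GENCODE start of that gene (46228580), and the window searched for Apoa4 also runs past its GENCODE start. Capitals mark matches, on either strand, to letters bound by endoderm factors or by the core promoter machinery: GTTAATNAT for HNF1, the letters CAAAGTCC for HNF4, either TGTTTAC or TGTTTGC for FOXA, the TATA box letters TATAAA, and for GATA factors AGATAA. No match overlapped another.
Afp, at chr5:90490464-90490713: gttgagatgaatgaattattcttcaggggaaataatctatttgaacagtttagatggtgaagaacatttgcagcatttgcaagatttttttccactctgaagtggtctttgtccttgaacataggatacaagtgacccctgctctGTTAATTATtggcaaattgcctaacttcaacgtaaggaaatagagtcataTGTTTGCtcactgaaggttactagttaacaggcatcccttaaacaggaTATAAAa
Alb, at chr5:90460620-90460869: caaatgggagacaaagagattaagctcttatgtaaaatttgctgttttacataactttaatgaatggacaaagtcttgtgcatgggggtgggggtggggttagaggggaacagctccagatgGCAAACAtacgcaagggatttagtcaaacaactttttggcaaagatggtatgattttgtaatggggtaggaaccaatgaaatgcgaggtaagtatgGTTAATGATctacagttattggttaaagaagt
Apob, at chr12:7977427-7977676: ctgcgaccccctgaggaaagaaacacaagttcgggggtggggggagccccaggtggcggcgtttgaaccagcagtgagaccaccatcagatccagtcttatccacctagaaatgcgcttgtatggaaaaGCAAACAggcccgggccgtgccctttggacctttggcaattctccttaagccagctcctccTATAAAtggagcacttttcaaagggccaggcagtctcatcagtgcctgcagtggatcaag
Apoa1, at chr9:46228380-46228629: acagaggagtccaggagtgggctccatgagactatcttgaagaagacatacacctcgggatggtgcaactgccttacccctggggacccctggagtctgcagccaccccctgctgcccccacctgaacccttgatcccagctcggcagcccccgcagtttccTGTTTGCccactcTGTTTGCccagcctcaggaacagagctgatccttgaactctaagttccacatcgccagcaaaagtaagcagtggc

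Promoters of 8 of the 10 genes were searched in the RefSeq table, in 10 entries, since Apoa2 and Rbp4 have 2 start sites each. Trf and Ttr were left out of this search, so nothing is said here of the letters upstream of them. The HNF1 letters stood upstream of Afp and Alb, in 2 of the 10 entries, against 0.737% of 32851 mouse promoters of the same length. The FOXA letters TGTTTGC stood upstream of Afp, Alb, Apob and Apoa1, where Apoa1 held them at 2 places, and 4.3% of all promoters hold them. TGTTTAC stood in 1 entry each of Apoa2 and Rbp4, against 3.17% of all promoters. TATAAA was found in 4 entries, those of Afp, Apob, Apoa2 and Rbp4, against 12.4% of all. The HNF4 letters, held by 1.2% of all promoters, and the GATA letters, held by 9.99%, were in none of the 10 windows. CpG pairs were few upstream of Afp (1) and Alb (2), and 28 stood in 1 of the entries of Rbp4, where the median of all promoters was 6. A match of letters is a description and was not tested for binding.

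Library totals ran from 7178712 to 39888099 reads on genes, so that 3 counts, the floor used here, equal 0.0752 to 0.418 CPM. Dis3l2 itself was lower in the shDis3l2 line on 5 of 7 days, with 13.7, 28.1, 32.1, 55.2 and 75.4% of the shLacZ level in the d0, d2, d4, d6 and d12 libraries. In the d8 pair (97.1%, 95% counting interval 83.7 to 113) and the d10 pair (95%, 78.8 to 115) its level did not separate the lines, so those are the libraries labelled shDis3l2 and no more. Ratios below are shDis3l2 over shLacZ in CPM, with an exact Clopper-Pearson 95% interval that covers counting error only, and they compare 2 libraries, not the lines in general. In bulk RNA, fewer cells of a type and less RNA per cell cannot be told apart.

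The genes together were nearly silent in ESCs and rose in both lines. Their summed share of all reads in shLacZ was 0.000534, 0.00184, 0.043, 0.111, 0.387, 0.569 and 0.35% from d0 to d12. In shDis3l2 it was 0.000733, 0.00103, 0.00975, 0.0234, 0.0981, 0.166 and 0.113%. Both lines were thus highest at d10, and from d2 on the sum was lower in shDis3l2 on each day sampled.

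**Figure D1:**
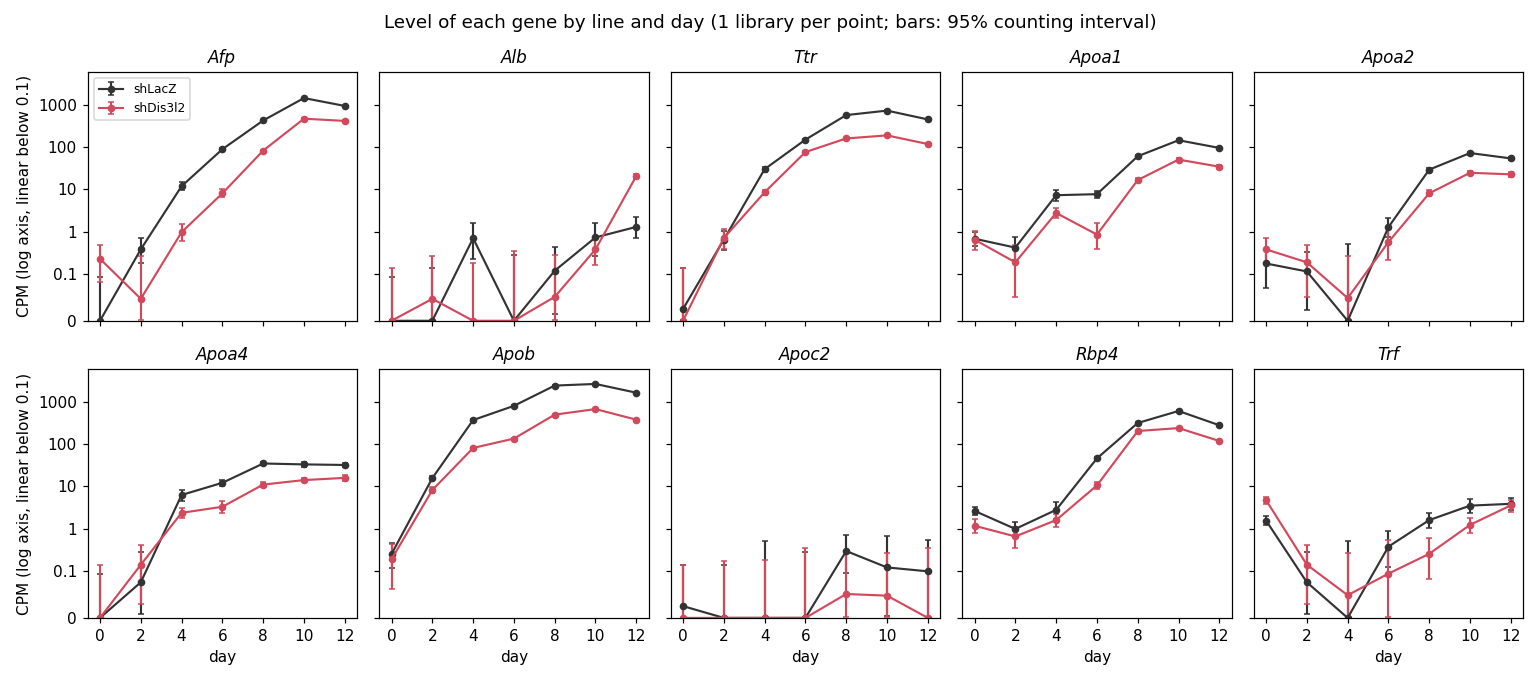
CPM (log axis, linear below 0.1) of the 10 genes against day, 1 library per point, black for shLacZ and red for shDis3l2, with 95% counting intervals. Afp, Ttr, Apoa1, Apoa2, Apob and Rbp4 peaked at d10 in both lines with the red curve below the black one from d6 on, Alb crossed over at d12, and Apoc2 stayed at 0 to 5 reads.

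Afp and Alb encode the fetal and the adult main serum protein. Afp in shLacZ stood at 0, 0.379, 11.8, 88.8, 425, 1440 and 938 CPM from d0 to d12. In shDis3l2 it was at 0.227, 0.0467, 0.966, 8.01, 82.3, 468 and 414 CPM. The shLacZ library was higher from d2 to d12, and the ratio rose toward 1, with 0.0816 (0.0475 to 0.134) and 0.0902 (0.0715 to 0.113) for d4 and d6, then 0.194 (0.183 to 0.205), 0.325 (0.316 to 0.334) and 0.442 (0.426 to 0.458) for d8, d10 and d12. Afp reached 10 CPM by d4 in shLacZ and by d8 in shDis3l2. At d0 its reads numbered 0 and 6.

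Alb moved the other way at the last day. It had 0, 0, 5, 0, 2, 6 and 13 reads in shLacZ from d0 to d12, and 0, 1, 0, 0, 1, 8 and 220 reads in shDis3l2. Up to d10 the levels were below 1 CPM in both lines, and at d10 they did not differ beyond counting error (ratio 0.522, 0.159 to 1.82). The d12 levels of Alb were 1.29 CPM (shLacZ) and 20.6 CPM (shDis3l2), a ratio of 16.0 (9.15 to 30.5) that rests on this library alone. Within shDis3l2 the step from d10 to d12 was 54.4-fold (27.1 to 128), and 1.66% of protein-coding genes rose at least 3-fold there. Reads of Alb were 0.137% of those of Afp in shLacZ at d12 and 4.97% in shDis3l2.

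Afp lies at chr5:90490737-90508907 and Alb at chr5:90460897-90476602 (GRCm38, GENCODE M21), in a cluster with the vitamin D carrier gene Gc and the afamin gene Afm. Afm and Gc, named because they share the cluster, were lower in shDis3l2 at d12, as Afp was and Alb was not. Afm was at 8.83 and 2.15 CPM (ratio 0.244, 0.147 to 0.389), and Gc at 13.7 and 6.27 CPM (ratio 0.458, 0.337 to 0.618).

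Of the lipoprotein genes, Apob, the structural protein of chylomicrons and VLDL, appeared first. Its levels in shLacZ from d0 to d12 were 0.251, 15.7, 371, 806, 2429, 2656 and 1647 CPM, and in shDis3l2 0.189, 8.18, 81.2, 135, 499, 675 and 379 CPM. It exceeded 10 CPM at d2 in shLacZ and at d4 in shDis3l2, and its ratio kept within a narrow band, with 0.219 (0.206 to 0.233), 0.168 (0.159 to 0.177), 0.205 (0.201 to 0.210), 0.254 (0.249 to 0.259) and 0.230 (0.223 to 0.238) for d4, d6, d8, d10 and d12.

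Apoa1, the main protein of HDL, was at 0.677, 0.417, 7.24, 7.67, 60.4, 145 and 95.2 CPM in shLacZ and at 0.642, 0.187, 2.75, 0.848, 16.5, 50.4 and 34.2 CPM in shDis3l2. From d4 to d6 it held its level in shLacZ and fell to 0.308 of the d4 level (0.134 to 0.627) in shDis3l2, so that its ratio was lowest at d6 (0.111, 0.0492 to 0.218). Apoa2, also of HDL, was under 0.4 CPM until d4 in both lines, then at 1.28, 29.2, 72.0 and 53.8 CPM in shLacZ and 0.565, 8.04, 24.6 and 22.6 CPM in shDis3l2. Its d6 ratio of 0.443 (0.143 to 1.18) was within counting error, and those of d8 (0.276), d10 (0.341) and d12 (0.420) were not. Apoa4, made by the yolk sac and gut, was at 0, 0.0758, 6.27, 12.2, 34.8, 33.2 and 32.1 CPM in shLacZ and 0, 0.140, 2.37, 3.30, 11, 14.1 and 15.9 CPM in shDis3l2. It was the member with the flattest course after d8 in shLacZ, and its ratio was 0.271 at d6 and 0.495 (0.409 to 0.598) at d12.

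Apoa1 (chr9:46228580-46230466) and Apoa4 (chr9:46240696-46243459) lie on either side of Apoc3, named for its place, which had at most 15 reads in any library from d6 on. Apoc2, the cofactor of lipoprotein lipase, had 0, 1 or 5 reads in each library, with the 5 in shLacZ at d8, and no difference between the lines was detectable at this depth. It also overlaps the readthrough gene Gm44805 on the same strand, listed at 0 reads, so its counts are uncertain.

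The carrier genes Ttr and Rbp4 encode proteins that circulate as a complex. Ttr was at 0.0251, 0.644, 29.9, 150, 569, 727 and 450 CPM in shLacZ and at 0, 0.701, 8.50, 75.9, 160, 188 and 118 CPM in shDis3l2. The lines did not differ beyond counting error at d2, and from d4 to d12 the ratios were 0.284, 0.507 (0.467 to 0.551), 0.280 (0.269 to 0.292), 0.259 and 0.261. Rbp4 was at 2.63, 0.985, 2.79, 46.0, 317, 609 and 280 CPM in shLacZ and at 1.17, 0.654, 1.59, 10.6, 204, 240 and 119 CPM in shDis3l2. Its ratio ran from 0.229 (0.186 to 0.281) at d6 to 0.646 (0.620 to 0.673) at d8, then 0.394 and 0.425, so the d8 library labelled shDis3l2 stood nearer to shLacZ for Rbp4 than for the other genes compared that day.

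Trf, the iron carrier, was a low gene throughout. It was at 1.55, 0.0758, 0, 0.376, 1.6, 3.51 and 3.87 CPM in shLacZ and at 4.72, 0.140, 0.0483, 0.0942, 0.254, 1.23 and 3.56 CPM in shDis3l2. It was higher in shDis3l2 in undifferentiated cells (ratio 3.04, 2.22 to 4.19, 62 against 125 reads), and 0.600% of protein-coding genes were called higher there. The median log2 ratio of all genes on that day was -0.32, and Rbp4 was lower (0.445, 0.288 to 0.669). After near silence at d2 and d4 it rose later in shDis3l2, with a ratio of 0.159 (0.0479 to 0.420) at d8, and at d12 the lines did not differ beyond counting error (0.920, 0.573 to 1.48).

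Levels between genes were compared per length, in TPM. At d10 in shLacZ the order was Ttr (1361 TPM), Rbp4 (1072), Afp (976), Apob (435), Apoa2 (306), Apoa1 (267), Apoa4 (41.7) and Trf (2.41), where the counting intervals of Apoa2 (282 to 332) and Apoa1 (252 to 283) overlapped. In shDis3l2 at d10 it was Rbp4 (421 TPM), Ttr (352), Afp (317), Apob (110), Apoa2 (104), Apoa1 (93.0), Apoa4 (17.7) and Trf (0.845), where Apoa2 (95.5 to 114) overlapped both Apob and Apoa1. At d12 Afp led in shDis3l2 (301 TPM), Ttr (236) and Rbp4 (224) did not differ beyond counting error, and Alb (21.5) stood level with Apoa4 (21.4). Afp reads per Ttr read rose from 0.594 at d6 to 2.09 at d12 in shLacZ and from 0.106 to 3.53 in shDis3l2.

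Steps between neighbouring days were counted as rises when a gene was at least 3-fold higher and reached 1 CPM. In shLacZ 5 of the 6 members compared rose from d2 to d4 (6.79% of all protein-coding genes did), 4 of 7 from d4 to d6 (4.78%), 7 of 8 from d6 to d8 (3.43%) and 1 of 8, Afp, from d8 to d10 (1.20%). In shDis3l2 it was 4 of 5 (7.31%), 3 of 6 (8.39%), 6 of 7 (6.55%) and, from d8 to d10, 4 of 8 (2.86%), namely Afp, Apoa1, Apoa2 and Trf. The shares of members lay above the share of all genes at each of these steps. In edgeR's quasi-likelihood test of d6 to d12 against d0 to d4 with line as a block, which takes libraries of different days as replicates of a period, 7 of 8 members tested were higher (18.7% of 17616 genes) and none lower. Afp led with a log2 difference of 8.24 (SE 1.48, adjusted p = 0.00101), Rbp4 followed at 6.84 (SE 0.82, adjusted p = 0.000123), and Trf, present at d0, was at 0.10 (adjusted p = 0.954). Low levels of the members before d6 were expected when the days were split. Members with few reads before d6 also passed the filter on low counts through the later libraries. The calls of this test therefore describe the rise and are no independent evidence for it. Fitted in shLacZ alone the test called 2 of 8 members higher, beside 701 of 16451 genes. In shDis3l2 alone it called 4 of 8, beside 1336 of 17740 genes.

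Between the lines, members at least 3-fold lower in shDis3l2 with at least 1 CPM in 1 library were counted by day. At d4 they were 3 of the 6 compared (Afp, Ttr and Apob), against 1.69% of 13010 protein-coding genes. At d6 they were 5 of 7 (Afp, Apoa1, Apoa4, Apob and Rbp4), against 4.27%, and at d8 7 of 8 (all compared but Rbp4), against 3.77%. At d10 they were 3 of 8 (Afp, Ttr and Apob), against 3.17%, and at d12 2 of 9 (Ttr and Apob), against 1.42%. Alb was the member called higher at d12, where 8.17% of genes were. The median ratios of the members compared were 0.327, 0.229, 0.275, 0.345 and 0.425 from d4 to d12, while the median log2 ratio of all protein-coding genes lay between -0.01 and 0.05 on these days. Just short of 3-fold at d10 were Apoa2 (0.341), Apoa1 (0.349) and Trf (0.351).

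**Figure D2:**
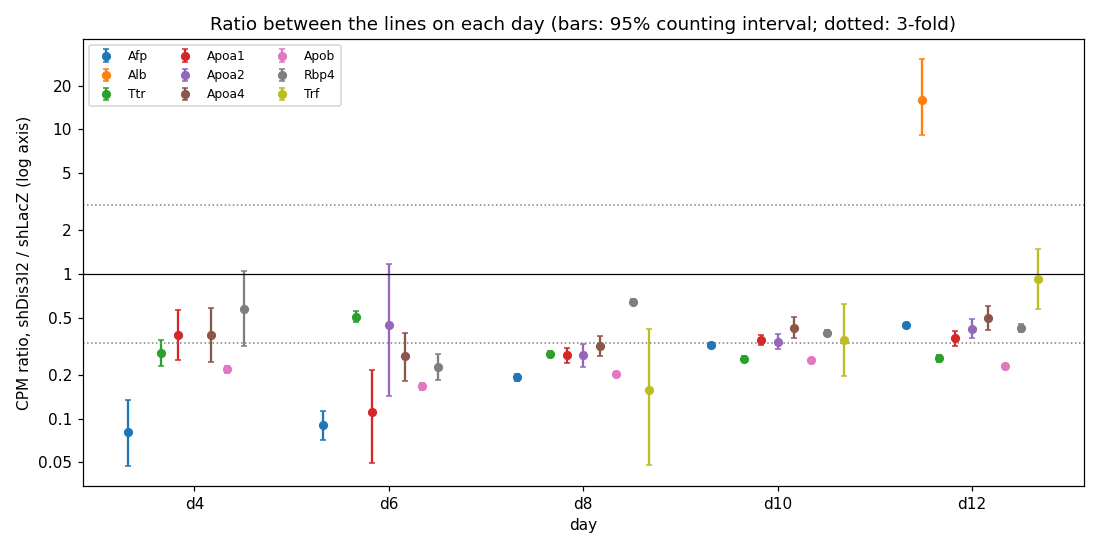
CPM ratio of shDis3l2 over shLacZ (log axis) for the members compared on each day from d4 to d12, with 95% counting intervals and dotted lines at 3-fold. All ratios lie below 1 except that of Alb at d12 (16.0), the intervals of Rbp4 at d4, Apoa2 at d6 and Trf at d12 reach 1, and the lowest ratios are those of Afp at d4 and d6.

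Over d6 to d12, edgeR's quasi-likelihood test with day as a block treated the 4 days, which come from a single series, like replicate cultures. It called 7 of the 9 members tested lower in shDis3l2 (18.7% of 17164 genes) and none higher (19.6% of genes). Apob was the furthest down, at a log2 difference of -2.25 (SE 0.11, adjusted p = 0.000189), followed by Afp (-2.06, SE 0.32, adjusted p = 0.0034), Apoa1 (-1.76, SE 0.18), Ttr (-1.69, SE 0.17), Apoa2 (-1.54, SE 0.13), Apoa4 (-1.42, SE 0.16) and Rbp4 (-1.28, SE 0.20). Each of the 7 was lower in shDis3l2 on 4 of 4 days. Over 10 alternatives the adjusted p of Apob ran from 6.21e-77 to 0.118 and that of Afp from 1.26e-07 to 0.347. Trf at -1.27 (SE 0.44, adjusted p = 0.057) and Alb at 2.25 (SE 1.10, adjusted p = 0.157) did not pass, and Apoc2 had too few reads to be tested. The median over the 9 was -1.54 and that of all genes 0.02. With the d6 and d12 libraries alone, where Dis3l2 separated the lines, the median of the 9 was -1.48, but edgeR called 0 members and 0 of 15950 genes (3149 at an unadjusted p under 0.05) with 1 residual degree of freedom. Without the day block 2 of 8 members were called lower, Apob and Ttr, beside 1439 of 16016 genes.

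**Figure D3:**
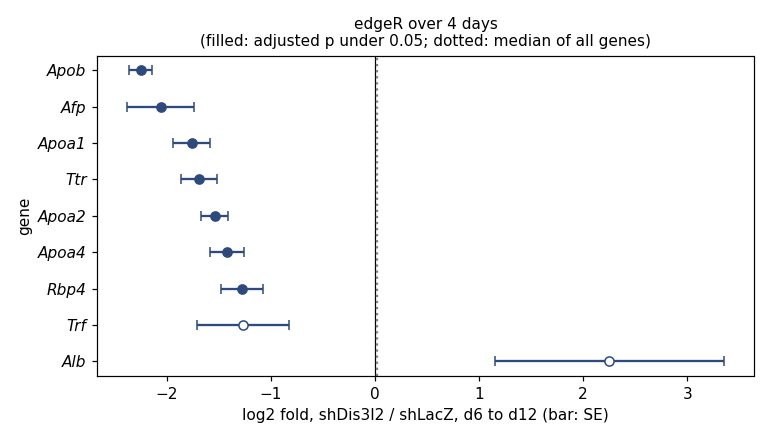
edgeR log2 difference of shDis3l2 against shLacZ over d6 to d12 for the 9 members tested, with SE bars, filled points for an adjusted p under 0.05 and a dotted line at the median of all genes (0.02). The 7 filled points lie between -2.25 (Apob) and -1.28 (Rbp4), and Trf and Alb are open.

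The shift of the Afp ratio toward 1 was tested as the change of the line difference from d6 and d8 to d10 and d12. In edgeR none of 17164 genes passed (0%; 1770 at an unadjusted p under 0.05), and of the members Afp (log2 change 1.4, SE 0.31, adjusted p = 0.204), Apoa4 (0.61) and Apob (0.38) were under the unadjusted 0.05. DESeq2 called 161 of 14113 genes, with 1 of 8 members among them, Afp at 1.44 (SE 0.30, adjusted p = 0.000863). The call for Afp depended on the tool, on the filter on low counts and on the days used. Of the 7 alternatives 4 called it: DESeq2, and edgeR without the filter, without d8 and without d10. Over the 7 its adjusted p ranged from 2.96e-15 to 0.252.

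The other plasma protein genes, a list of 34, were compared next, and the edgeR counts of this and the following lists stand beside 18.7% of all genes tested called lower and 19.6% called higher. Over d6 to d12 edgeR called 13 of the 22 tested lower and 1 higher, Igfbp1 (0.76, SE 0.23, adjusted p = 0.0432), with a median of -1.11. Apoe, the receptor ligand of remnant lipoproteins, had the highest level of the list, 1755 (shLacZ) and 561 CPM (shDis3l2) at d10 (log2 difference over the 4 days -1.4, SE 0.10). Apoc1 (-1.61, SE 0.14) and Apom, the HDL carrier of sphingosine 1-phosphate (-1.88, SE 0.09), fell too. The prothrombin gene F2 fell over the 4 days (-0.99, SE 0.31, adjusted p = 0.041), although its d12 levels of 21.1 and 21.5 CPM did not differ beyond counting error. At d12 the corticosteroid carrier gene Serpina6 had 3 reads in shLacZ and 62 in shDis3l2 (ratio 19.5, 6.37 to 97.2), and it and Ahsg were the 2 of 26 compared that were called higher with Alb on that day, a share near the 8.17% of all genes, while 6 were called lower, against 1.42% of all genes.

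Genes that build and load lipoproteins were 14, of which 6 of 11 tested fell and 1 rose. Mttp, the transfer protein that loads lipid on APOB, was at 222 and 80.9 CPM (shLacZ and shDis3l2) at d10 (-1.47, SE 0.07), and Soat2, which makes cholesteryl esters, at 69.8 and 15.4 CPM (-2.21, SE 0.11). P4hb, the ER chaperone subunit of MTTP that most cells use, fell by a small amount (-0.24, SE 0.06, adjusted p = 0.0194). Pltp, the plasma phospholipid transfer protein, rose (1.42, SE 0.25, adjusted p = 0.00505). Of 16 receptors and carriers of the cargo, 7 of 15 tested fell and 4 rose, and the 4 are a share near that of all genes called higher. The endocytic receptors Cubn (-2.13, SE 0.11) and Lrp2 (-1.74, SE 0.15) and the cubilin partner Amn (-1.92, SE 0.24) fell, and Lrp1 rose (1.52, SE 0.13). Lrat, which esterifies retinol, was the one called furthest up at d12, from 1 read in shLacZ to 11 in shDis3l2 (ratio 10.4, 1.51 to 447).

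Of 18 endoderm and hepatic transcription factors, edgeR called 10 lower and 2 higher (median -0.80). Gata4 had the highest level, 400 and 235 CPM (shLacZ and shDis3l2) at d12 (-0.90, SE 0.06), and Creb3l3, an ER-anchored regulator of apolipoprotein genes, was at 25.6 and 8.33 CPM (-1.81, SE 0.15). Gata6 (0.25, adjusted p = 0.398) and Nr5a2 (-0.63, adjusted p = 0.32) did not pass. The ratios of Hnf4a were 0.238, 0.319, 0.303 and 0.383 from d6 to d12. Foxa1 was higher in shDis3l2 at d8 (ratio 2.02, 1.59 to 2.57) and lower at d12 (0.617), and Prox1 was higher at d6 (1.46, 1.24 to 1.73). Cebpa, a factor of hepatocytes and adipocytes, was at 1.29 and 4.31 CPM at d12 (ratio 3.34, 1.77 to 6.74) and did not pass over the 4 days (1.08, adjusted p = 0.173).

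Markers of other cell types moved as well. All 12 visceral endoderm markers, 6 of which also stand in the receptor or transcription factor lists, were called lower by edgeR over d6 to d12 (median -1.48). Spink1 was at 230 and 50.8 CPM at d12 (-1.75, SE 0.22). At d12 alone S100g (ratio 0.989, 0.917 to 1.07) and Cited1 (0.956, 0.894 to 1.02) did not differ beyond counting error. The summed CPM of the 12 ranged from 3703 to 6280 in shLacZ and from 1001 to 1779 in shDis3l2 over d6 to d12. The ratios of those sums over the same 4 days were 0.228, 0.283, 0.327 and 0.458, beside 0.211, 0.254, 0.292 and 0.322 for the sums of the plasma protein genes. Of 11 parietal endoderm markers edgeR called 7 lower and none higher, led by Col4a1 (-1.34), Col4a2 (-1.30) and Lama1 (-1.27). Their summed CPM was 9347 to 51401 in shLacZ and 4205 to 26489 in shDis3l2. On single days some went the other way. Nid1 was higher in shDis3l2 at d6, d8 and d10 (ratios 2.26, 2.68 and 1.57) and lower at d12 (0.719). Snai1 was higher at d6 and d8 (1.49 and 1.34) and lower at d10 and d12 (0.588 and 0.609). Of 10 mesenchyme markers 9 rose (median 3.04), with sums of 398 to 1941 CPM (shLacZ) and 1245 to 16815 CPM (shDis3l2). Among them Col3a1 was at 493 and 7939 CPM, Col1a1 at 146 and 3539 CPM, Postn at 120 and 788 CPM and Dcn at 10.8 and 324 CPM at d12.

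**Figure D4:**
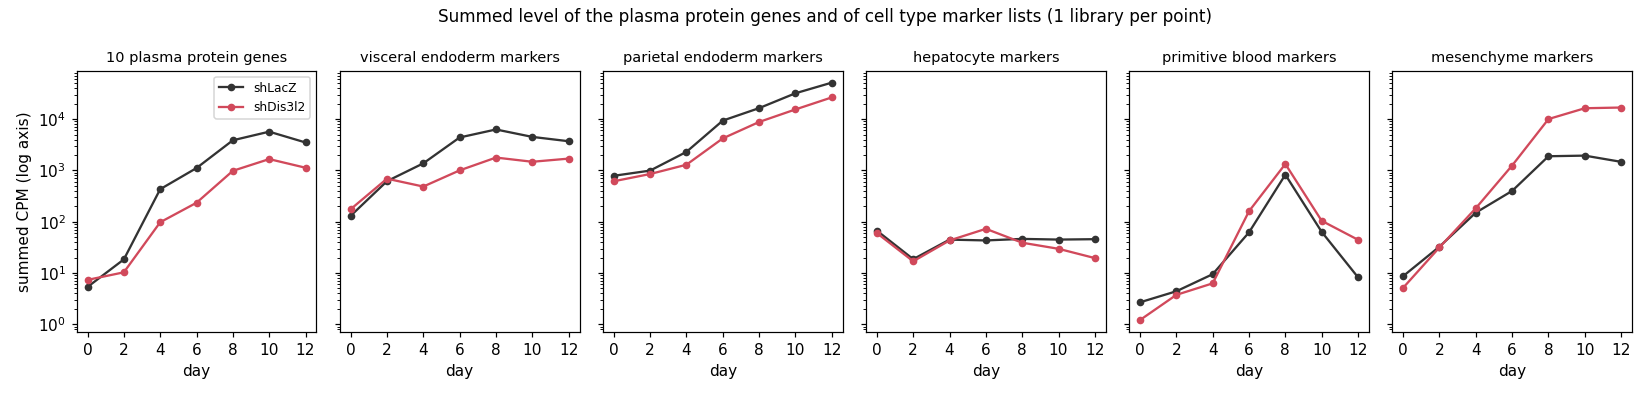
Summed CPM (log axis) of the plasma protein genes and of 5 marker lists against day, 1 library per point, black for shLacZ and red for shDis3l2. The sums of plasma protein genes, visceral endoderm and parietal endoderm markers are lower in shDis3l2 from d4 on, and the hepatocyte sum stays below 80 CPM in both lines. The mesenchyme sum is higher in shDis3l2 from d4 on. At d4 it was 150 and 183 CPM, and of 9 mesenchyme markers compared 4 were called lower in shDis3l2 and 0 higher.

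Of 14 hepatocyte markers 5 had enough reads to be tested, and Asgr1, a subunit of the asialoglycoprotein receptor, rose (2.14, SE 0.52, adjusted p = 0.0175 in edgeR). Asgr1 had 4, 4, 2 and 3 reads in shLacZ and 5, 41, 41 and 7 in shDis3l2 from d6 to d12. Its rise thus rests on d8 and d10, and at d12 it was within counting error (ratio 2.2, 0.503 to 13.2). The summed CPM of the 14 markers over d6 to d12 was 43.1 to 46.2 in shLacZ and 19.5 to 72.6 in shDis3l2. Fah (-0.05) and Tdo2 (-0.20) did not pass. Tdo2 was higher in shDis3l2 at d6 (23.9 and 53.7 CPM). At d12 it was lower (15.2 and 2.25 CPM) and Sult1a1 higher (0.397 and 1.4 CPM, 4 and 15 reads) in shDis3l2. Cyp7a1, Cyp3a11 and G6pc, of the same list, were at 0 reads in all 14 libraries. Which cells gave the Alb reads of shDis3l2 at d12 was not tested. Of 11 gut epithelium markers 6 of 8 tested fell and 0 rose, among them Vil1 (-1.35), Cdx2 (-0.66), Tff3 (-1.41) and Fabp2 (-1.94), with summed CPM of 101 to 162 and 50.9 to 76.5. On single days Krt20 was higher in shDis3l2 at d8 (ratio 2.77, 1.28 to 6.65). Lgals4 was lower at d6 (0.464, 0.201 to 0.99) and higher at d12 (2.34, 1.38 to 4.09, 21 against 52 reads). Of 10 choroid plexus markers, a tissue rich in Ttr, 4 of 7 tested fell, among them Clic6 (-1.6), Enpp2 (-0.92) and Otx2 (-3.00), with sums of 440 to 779 and 141 to 269. In that list Kcnj13 had at most 1 read in any library, and Kl at most 8 reads from d6 on. The sums of 779 (shLacZ) and 269 CPM (shDis3l2) at d8 held 548 and 197 CPM of Clic6 and 150 and 51.2 CPM of Folr1. Of 8 primitive blood markers, cells of the yolk sac, 4 rose, including Hbb-y (1.47) and Hbb-bh1 (1.14), with sums of 8.23 to 825 and 44.4 to 1334. The part of these cell types in the results for the plasma protein genes was not tested.

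Across the 14 libraries the members followed each other unevenly. The Pearson r of log2(CPM + 1) with the mean of the other members was 0.99 for Afp, 0.97 for Apoa1, 0.94 for Apoa2, Apoa4 and Rbp4, 0.89 for Ttr, 0.82 for Apob and 0.44 for both Alb and Trf, where all points share the rise with day. The 10 genes most like the mean pattern among 11553 others were Spock1 (r 0.990), Lama1, Enpep, Apol7a, Fgb, Mamld1, B4galnt2, Ugt2b34, Rab6b and Mfsd7c (r 0.977). Fgb, the fibrinogen beta chain, belongs to the list of other plasma proteins and was at 96.6 (shLacZ) and 27.6 CPM (shDis3l2) at d10, and Lama1, a laminin chain of basement membranes, is a parietal endoderm marker. With the 8 libraries of d6 to d12 alone, 1 of these 10 was again among the first 10.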

How the data were processed

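PolyA RNA of 14 libraries was sequenced. Alignment by the authors used Subread on GRCm38 (Ensembl 88), and featureCounts gave the deposited counts, which are whole reads. The second deposited table, in CPM from edgeR, lists protein-coding genes without those of low level and served as an alternative. Both tables head the shDis3l2 columns "shm5", which was matched to the shDis3l2 labels as the only other hairpin.

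CPM was computed from counts and library totals. A protein-coding gene was compared on a day when 1 of the 2 libraries had at least 1 CPM and more than 3 counts, and called at 3-fold. A fold against 0 reads was set against the floor of 3 counts. Since PCR copies were not marked by molecular identifiers, intervals and floors cover counting error only. The test was edgeR's quasi-likelihood test (edgeR 4.0.16, R 4.3.3) on counts kept by filterByExpr, with TMM factors and a Benjamini-Hochberg threshold of 0.05. The SE given with edgeR values is the absolute log2 difference divided by the square root of the F statistic, not a fitted standard error. DESeq2 1.42.0, which reports its own SE, was an alternative, and the code was tested on simulated data. Where nothing says that samples are separate cultures, p-values measure the spread between these libraries. All members are named. Of each other list, the genes named are the 2 of highest CPM and the one called furthest up and furthest down at d6 and at d12; others named were chosen after their values were seen. The members and lists were chosen with earlier results of these data known. Other alternatives are given in the closing section. The result for 1 hepatocyte marker is not reported here.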

Additional observations from a re-analysis of the deposited data

How the results depend on the processing

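Every call above rests on 1 library per line and day, and depth limits Alb before d12, Apoc2 throughout and Trf up to d8. The labels carry no replicate numbers, so the lines were paired by day alone, as a block in the test over d6 to d12, which called 7 members lower with the block and 2 without it. TMM scaling, DESeq2 size factors, totals without the members and the deposited CPM values left the members called on each day from d4 to d12 as they were, although these scalings moved the d0 median log2 ratio of all genes from -0.32 to -0.13 (TMM) and 0.07 (DESeq2), which touches the Trf ratio of that day. At 2-fold, 5 members were lower at d4 (5.15% of all genes compared), 8 at d10 (8.74%) and 7 at d12 (4.31%). A minimum of 10 CPM moved the d4 median to -2.19.

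Over d6 to d12, 0 members were lower with d6 and d12 alone, an alternative chosen after seeing the data. Without the filter on low counts 1 of 10 members was higher (Alb, adjusted p = 0.0264), beside 3601 of 30873 genes. In that fit 8 members were lower, beside 3158 genes. Leaving out a day gave 7 to 8 lower members, with Trf added without d12. It gave 1695 to 3440 genes higher and 1641 to 3237 lower, of 16647 to 17323 tested. Without the block 1895 of 16016 genes were higher and 1439 lower. With all 7 days it was 382 and 765 of 20050, and with d6 and d12 alone 0 and 0 of 15950. For the change of the difference, DESeq2 called 116 of 14113 genes higher and 45 lower. No filter gave 652 and 279 of 30873, with 1 member higher in each of these fits. Leaving out a day called 0 to 196 genes higher and 0 to 116 lower, of 17561 to 18266 tested. Of the members 0 to 1 were higher (Afp without d8 or d10) and 0 to 1 lower (Ttr without d8, -1.01). For d6 to d12 against d0 to d4, shLacZ alone gave 2 members higher, and of 16451 genes 701 higher and 298 lower. In shDis3l2 alone it was 4 members, and of 17740 genes 1336 and 872. Leaving out a day gave 6 to 8 members higher, 2616 to 4743 genes higher and 2942 to 5376 lower, of 17727 to 18630 tested. Apob lost its call without d2, d8 or d10 (adjusted p 0.0684, 0.0506 and 0.0552), and Trf gained one without d0 (4.31, adjusted p = 0.00662). Of the 10 genes most like the members, 7 were kept with a pseudocount of 0.25 and 1 with the d6 to d12 libraries. No member called in the tests above changed sign under the alternatives run, while Trf, not called in the comparison of periods, ran there from -1.14 to 4.31. The cause of these changes was not tested.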
